A study of Xenopus laevis with 45 samples.

Results

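RNA of whole Xenopus laevis embryos was compared between ERFE MO2, a morpholino against erythroferrone (ERFE), and the same amount of a standard control morpholino (cMO), at stage 37/38. A total of 6 libraries entered the comparison, chosen by their titles out of 45 in the study, with 3 of 20 ng ERFE MO2 and 3 of 20 ng cMO. A further 3 libraries of uninjected embryos of the same stage served as a second reference. The study as a whole holds 5 conditions at 3 stages with 3 libraries each. The other conditions are 10 ng ERFE MO1 and 10 ng cMO, and the other stages are 35/36 and 41. Morpholino was injected into the 4 vegetal blastomeres of 8-cell embryos, whose descendants contribute much of the gut and its glands. All embryos, uninjected ones included, were raised in 0.1x MBS. The labels name no strain or genetic modification, and they do not say how many embryos were pooled per library or whether the replicates came from separate clutches. The p-values below therefore measure the spread between libraries. For calls at stage 37/38 it is the spread left among the 15 libraries of that stage once replicate number is taken into account.

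A morpholino is an antisense oligomer that binds a chosen RNA and blocks its translation or its splicing, and the labels leave out which of these applies to MO2. In mammals, erythroferrone is a hormone released by erythroid precursors that binds bone morphogenetic proteins (BMPs). It thereby lowers the signal that keeps hepcidin expression up in the liver, which frees iron for haemoglobin synthesis. Its gene is listed here by an older name, fam132b, and only as the L copy. Xenopus laevis is allotetraploid, and most genes exist as a homeologous pair of copies, marked .L and .S, which can share reads.

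The 6 libraries held 30602802 to 38595059 counts, and 34884 to 35961 genes had a count in each of the 15 libraries of stage 37/38. The most abundant gene took at most 0.752% of a library. The lane numbers in the labels put pairs 2 and 3 of MO2 and cMO in the same lane each, while pair 1 was split between lanes 2 and 1. Uninjected replicates 1, 2 and 3 were in lanes 1, 3 and 4, and those of MO2 in lanes 2, 3 and 5. The uninjected reference thus shared a lane with MO2 for replicate 2 only. Libraries with the same replicate number deviated together in all 30 pairs (correlation of deviations 0.337 to 0.598), so the replicate number was kept as a block in the model. A pair of libraries outside the comparison put a label in doubt. The library labelled ERFE MO1 stage 37/38 replicate 2 was nearly identical to the library labelled ERFE MO2 stage 35/36 replicate 1, with a chi-square per gene of 1.22 against 3.78 for the next closest pair in the study. On the stage score described below, the stage 35/36 library was at 0.0426 and the others of its group at -0.198 and -0.240. The MO1 library was at 0.0446, between uninjected (0.0406) and 10 ng cMO (0.0774) replicate 2 of stage 37/38. Which label is wrong was not tested. Only the MO1 library shares the main model with the 6 libraries. It is called the doubted MO1 library below, and results on MO1 are given with and without it.

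The targeted gene was lower in the embryos injected with MO2. The level of fam132b.L in CPM, read counts scaled to a common library size, was 1.94, 2.42 and 3.87 in MO2 embryos, against 3.81, 3.98 and 6.41 in cMO embryos and 4.51, 4.70 and 5.26 in uninjected embryos. MO2 was lower in 3 of 3 pairs and lay below every uninjected library, but its highest library was above the lowest of cMO. The log2 fold change was -0.79 ± 0.15 (SE) against cMO (adjusted p = 0.0113) and -0.85 against uninjected embryos (adjusted p = 0.00673). The call against cMO was lost without MO2 replicate 1, cMO replicate 1 or cMO replicate 3, with adjusted p up to 0.0794. The steady level of an RNA does not measure how much protein a morpholino has blocked.

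Of 30367 genes tested, 856 were called changed between MO2 and cMO (2.82%), 316 higher (1.04%) and 540 lower (1.78%). A gene was called at an adjusted p under 0.05 in the edgeR quasi-likelihood test with Benjamini-Hochberg adjustment, from which all adjusted p-values here come. At an unadjusted p under 0.05 that test held 5220 of the 30367 genes, higher or lower, and DESeq2 called 1139. List counts given below for these 2 settings are to be read beside those. Calls in each gene list are to be read beside 2.82% of all genes tested, 1.04% higher and 1.78% lower. Most changes were small. The called genes had a median log2 fold change of 0.39 on the higher side, where 21 exceeded 1, and of -0.49 on the lower side, where 81 did. Against uninjected embryos, 1503 genes were called (4.95%), 651 higher (2.14%) and 852 lower (2.81%), and 540 genes were called in the same direction against both references (1.78%), 172 higher and 368 lower. Both comparisons use the same MO2 libraries. The control morpholino by itself differed from uninjected embryos at 22 genes (0.0724%), 5 higher (0.0165%) and 17 lower (0.0560%). MO2 and cMO ranges did not overlap for 271 of the 316 higher and 450 of the 540 lower genes, beside 14.4% of all genes tested. Calls and ranges come from the same libraries, so separate ranges add no evidence of their own, here and for single genes below. Of 9137 homeologous pairs with both copies tested, 62 had both copies called the same way and none had them called in opposite ways. In 416 pairs 1 copy alone was called, and the other had the same sign in 326. Sign agreement over all pairs was not counted, and the copies of a pair can share reads.

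The number of calls moved with the model and with single libraries. Without the replicate block 54 genes were called, all of them among the 856. Without MO2 replicate 1 there were 230 and without cMO replicate 1 there were 249. Leaving number 1 out of all 5 conditions, which keeps the same-lane pairs 2 and 3, gave 62. Doing so for number 2 gave 541 and for number 3 gave 220. Without MO2 replicate 3 there were 460, without cMO replicate 2 there were 499 and without cMO replicate 3 there were 321. The doubted MO1 library enters the estimate of spread, and 1145 genes were called without it. None of the 87 named called genes changed sign under these settings, and 39 of them were called in each of the 15 fits that left out 1 library.

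**Figure D1:**
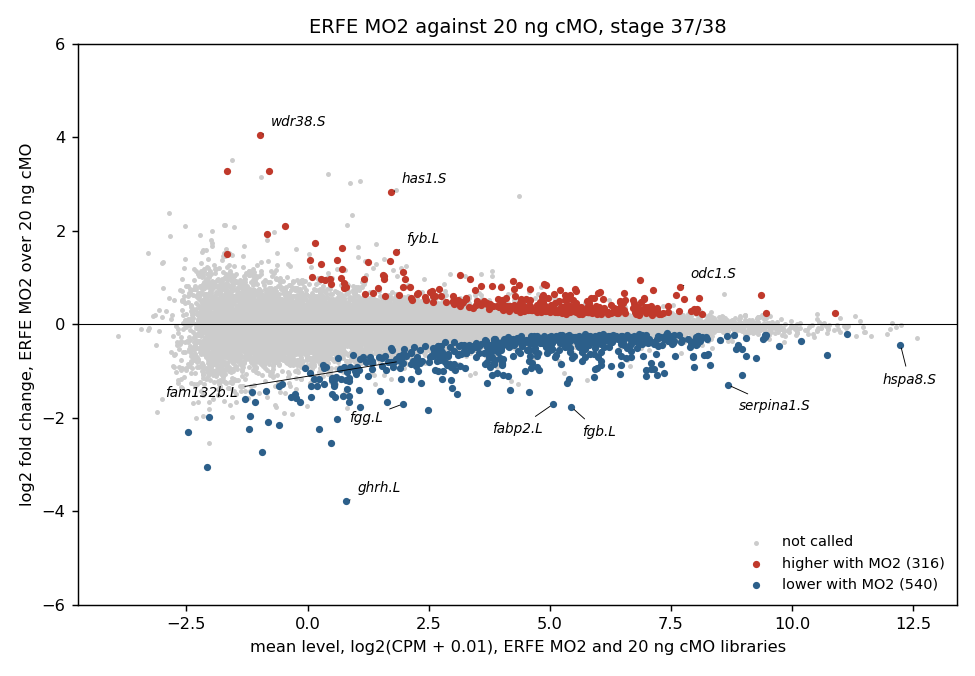
Each point is 1 of the 30367 genes tested, with its mean level in the MO2 and cMO libraries across, as log2(CPM + 0.01), and its log2 fold change of 20 ng ERFE MO2 over 20 ng cMO at stage 37/38 up. Red points are called higher (316), blue points are called lower (540) and grey points are not called; past a log2 fold change of 1 there are 21 higher and 81 lower genes.

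RNAs of proteins that the liver releases into plasma formed the group with the most calls. Of 53 tested copies in this list, 23 fell and none rose in MO2 embryos, and 21 of the 23 were also called lower against uninjected embryos. The list's median log2 fold change was -0.51, beside -0.00066 over all genes tested. At an unadjusted p under 0.05 the list held 36 lower and 1 higher, and DESeq2 called 23 lower and 1 higher. The summed level was 6008 to 8472 CPM in MO2 embryos, against 9497 to 12320 CPM in cMO and 8957 to 13720 CPM in uninjected embryos. In RNA of whole embryos, fewer cells of a type and less RNA per cell cannot be told apart, here and for every tissue below.

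Plasminogen, the precursor of the clot-dissolving protease plasmin, had 12.5, 11.8 and 13.5 CPM for plg.S in MO2 embryos, against 32.2, 30.1 and 41.5 CPM in cMO and 29.6, 35.0 and 48.8 CPM in uninjected embryos. Every MO2 library lay below every library of either reference, and the log2 fold change against cMO was -1.45 ± 0.13 (adjusted p = 0.000106). The fibrinogen chains, which form the clot itself, fell for both copies of all 3 genes. The beta chain fgb.L had 11.5, 12.6 and 41.1 CPM in MO2 embryos, against 52.5, 54.9 and 88.5 CPM in cMO embryos (log2 fold change -1.77 ± 0.23, adjusted p = 0.000778). The gamma chain fgg.L had 1.26, 1.77 and 2.47 CPM in MO2 embryos, against 4.19, 5.87 and 7.90 CPM in cMO embryos (-1.70 ± 0.18, adjusted p = 0.000218). Both had separate ranges, and replicate 3 was the highest in each group. The other 4 copies changed by -0.95 (fgb.S), -1.03 (fgg.S), -0.96 (fga.S) and -1.11 (fga.L) on the log2 scale.

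The protease inhibitor alpha-1-antitrypsin was among the most abundant of these RNAs. Its copy serpina1.S had 213, 167 and 338 CPM in MO2 embryos, against 574, 426 and 722 CPM in cMO embryos and 512, 568 and 842 CPM in uninjected embryos. The ranges were separate and the log2 fold change against cMO was -1.29 ± 0.14 (adjusted p = 0.000307). The adhesion protein vitronectin followed, with vtn.L at -1.16 ± 0.12 (adjusted p = 0.000168). The rest of the called members were the transthyretin copies ttr.S (-0.88) and ttr.L (-0.92), carriers of thyroid hormone, the complement genes c3.L (-0.66), c3.S (-0.78) and c9.L (-0.65), the second copy serpina1.L (-1.07), itih2.S (-0.95), itih2.L (-0.68), kng1.S (-0.98), the vitamin D carrier gc.S (-0.78), fetub.L (-0.68), serpinc1.L (-0.44), f13b-like.L (-0.66) and the lipid carrier apoa1.L (-0.46). The number of lower calls in this list was 11 without cMO replicate 1, between 14 and 17 without any other library of the 6, 27 without the doubted MO1 library, 7 in the same-lane pairs and 1 without the block.

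**Figure D2:**
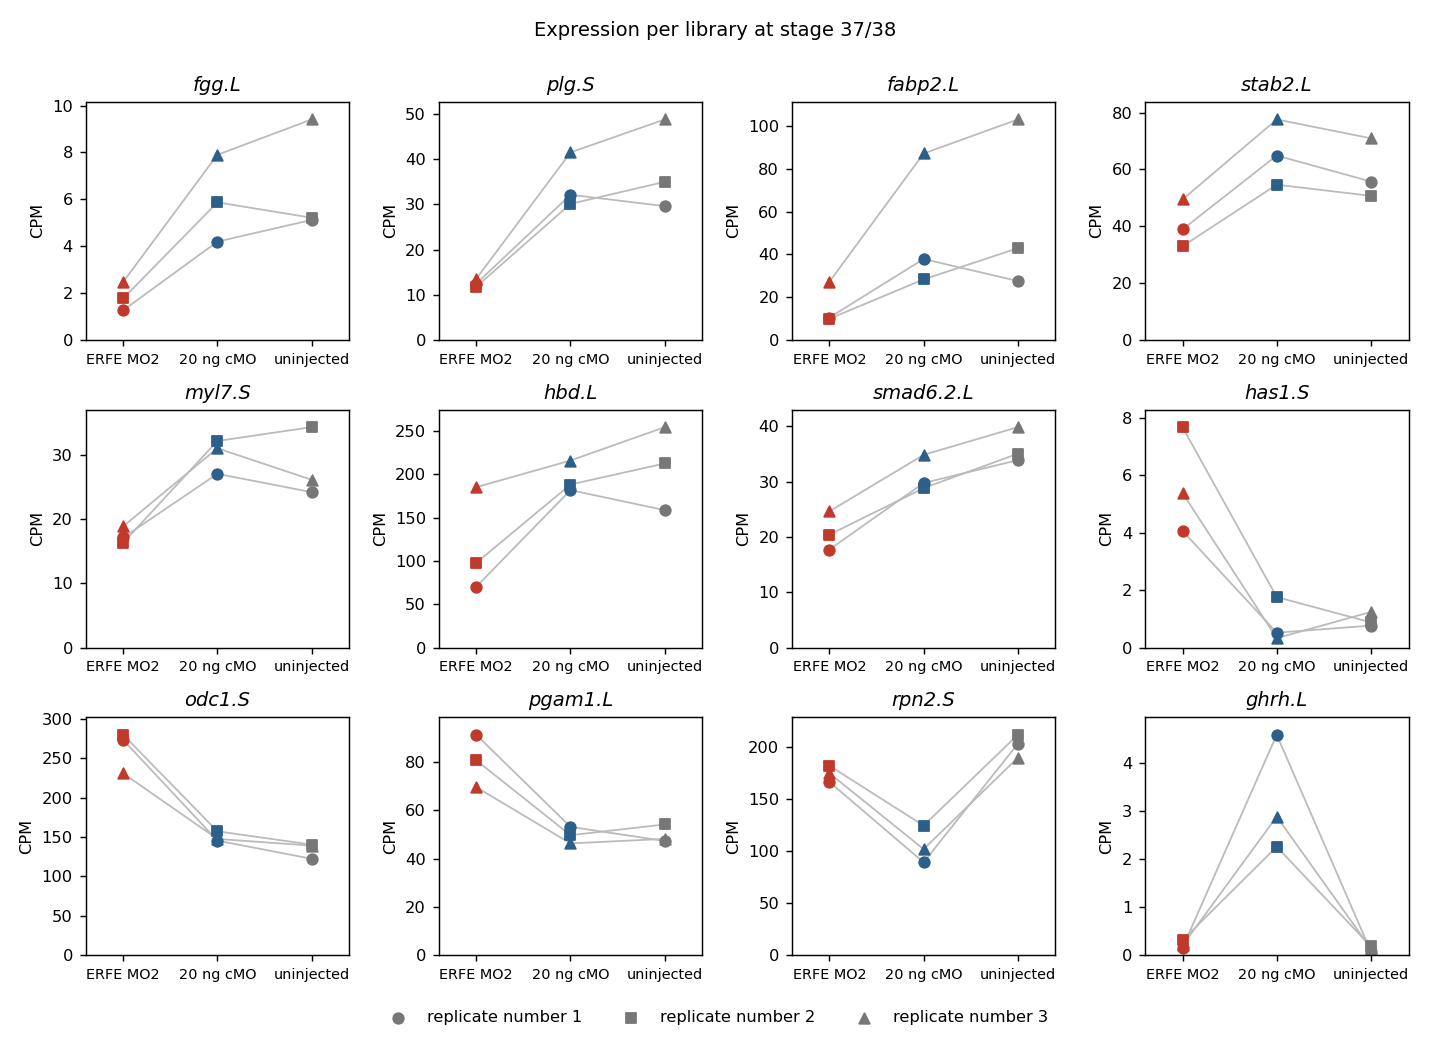
CPM of 12 genes in each library of stage 37/38, with 20 ng ERFE MO2 at the left, 20 ng cMO in the middle and uninjected embryos at the right of each panel, on linear axes from 0. Each point is 1 library, its shape gives the replicate number, and grey lines join libraries of the same number; plg.S runs from 11.8 to 13.5 CPM in MO2 embryos and from 30.1 to 41.5 CPM in cMO embryos, while hbd.L of MO2 replicate 3 (185 CPM) lies within the cMO range.

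Liver enzymes had fewer calls. Of 46 tested copies, 7 fell and 1 rose in MO2 embryos, with a median of -0.19, and 6 of the 7 were lower against uninjected embryos too. The cytochrome P450 gene cyp2c18.S had 11.2, 9.78 and 10.3 CPM in MO2 embryos, against 17.2, 19.1 and 18.5 CPM in cMO embryos, with separate ranges (log2 fold change -0.81 ± 0.09, adjusted p = 0.000374, and -0.63 against uninjected embryos). Urate oxidase, which breaks down uric acid, fell for both copies, by 0.89 (uox.L) and 1.43 (uox.S) on the log2 scale. The folate enzyme gene aldh1l1.L fell by 0.68, and the alcohol dehydrogenase copies adh1b.S and adh1b.L by 1.35 and 0.83. The member that rose was serine dehydratase, sds.L (0.56 ± 0.11, adjusted p = 0.0109). For pck1.L, the rate-limiting enzyme of gluconeogenesis, cMO stood above both others, with 64.2, 92.4 and 78.7 CPM in MO2, 133, 120 and 128 CPM in cMO and 82.3, 83.2 and 91.2 CPM in uninjected embryos. The list held 3 lower calls without cMO replicate 1, and 4 when MO2 replicate 1 or 3 or cMO replicate 3 was left out.

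Genes of fatty acid binding proteins, known from the absorptive epithelium of the gut, were lower. RNA of whole embryos does not show in which tissue they fell. Copy fabp2.L had 10.5, 9.88 and 27.2 CPM in MO2 embryos, against 37.8, 28.3 and 87.3 CPM in cMO and 27.6, 42.9 and 103 CPM in uninjected embryos. Ranges were separate, and the log2 fold change against cMO was -1.71 ± 0.24 (adjusted p = 0.00144). Both fabp2.S (-1.25) and fabp1.L (-1.07) also fell, as did gata5.S (-0.42), a transcription factor of the endoderm and heart. The fabp1.L call depended on single libraries (adjusted p up to 0.193). Lactase, the enzyme that splits milk sugar in mammals, rose: lct.L had 5.48, 3.93 and 6.65 CPM in MO2 embryos, against 2.61, 2.39 and 2.38 CPM in cMO and 1.76, 1.68 and 1.64 CPM in uninjected embryos (1.12 ± 0.19, adjusted p = 0.00591). The proton pump subunit of the stomach, atp4b.S, was called higher (0.87 ± 0.22, adjusted p = 0.0435), a call lost without any 1 of the 6 libraries. Over the intestine, stomach and lung list, 4 of 40 tested copies fell and 2 rose. Lower calls numbered 1 without cMO replicate 1 or MO2 replicate 2, 2 when MO2 replicate 1 or 3 or cMO replicate 3 was left out, and 5 without the doubted MO1 library.

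Among the genes with the largest falls against both references were the claudin cldn18.S and vsig1.L, both of the stomach lining in mammals. They changed by -2.15 ± 0.52 and -1.67 ± 0.40 (adjusted p = 0.0376 and 0.0392) and depended on single libraries, with adjusted p up to 0.374 and 0.409. The digestive enzymes of the pancreas were barely expressed at this stage, with a summed level of 16.7 to 18.5 CPM in MO2, 16.4 to 22.8 CPM in cMO and 18.8 to 23.7 CPM in uninjected embryos. No copy of the 14 tested was called by edgeR or by DESeq2, although the median was -0.70 and 4 were lower at an unadjusted p under 0.05.

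Some vessel genes fell, and none rose. Of 57 tested copies in the endothelium list, 10 fell, with a median of -0.22, and 8 of the 10 were called lower against uninjected embryos. At an unadjusted p under 0.05 there were 26 lower and 4 higher copies, and DESeq2 called 11 lower and 0 higher. The scavenger receptor stabilin 2, of sinusoidal and lymphatic endothelium in mammals, had 38.9, 32.9 and 49.4 CPM for stab2.L in MO2 embryos, against 64.9, 54.6 and 77.6 CPM in cMO and 55.7, 50.7 and 70.9 CPM in uninjected embryos. Within each pair MO2 was lower, and the log2 fold change against cMO was -0.71 ± 0.07 (adjusted p = 0.000126). The endothelial junction gene cdh5.S had 5.91, 5.38 and 5.99 CPM in MO2 embryos, against 10.7, 9.12 and 11.4 CPM in cMO and 10.6, 8.50 and 9.21 CPM in uninjected embryos. Its ranges were separate (-0.85 ± 0.10, adjusted p = 0.000374), and cdh5.L fell by 0.34.

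Transcription factors and receptors of the same lineage were also among the calls. The ETS factors fli1.S and etv2.S, which act early in vessel and blood formation, fell by 0.39 and 0.56 on the log2 scale. The receptor tyrosine kinases tie1.S (-0.68) and flt4.L (-0.68), of which flt4 is a receptor of lymphatic vessels, and the adhesion genes pecam1.L (-0.53), pecam1.S (-0.71) and lyve1.L (-0.80) made up the rest. The tie1.S call was lost without MO2 replicate 1, cMO replicate 1 or cMO replicate 3 (adjusted p up to 0.082). The VEGF receptor kdr, chosen for mention after its values were seen, was not called, at -0.37 ± 0.11 for kdr.L (adjusted p = 0.100) and -0.13 ± 0.14 for kdr.S. Its relative kdrl.L, outside the list and likewise chosen, was called against cMO (-0.46 ± 0.11, adjusted p = 0.0449) but not against uninjected embryos (-0.39, adjusted p = 0.0654). Without MO2 replicate 1 or cMO replicate 3 the list held 3 lower calls, without MO2 replicate 3 it held 4, without cMO replicate 1 or 2 it held 5, and the same-lane pairs gave 2.

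Red blood cell genes were lower as well. In the list of erythroid genes and haem synthesis, 7 of 34 tested copies fell and none rose (20 lower and 1 higher at an unadjusted p under 0.05, and 8 lower and 0 higher by DESeq2), with a median of -0.27. A total of 5 of the 7 encode steps of haem synthesis, and 6 of the 7 were also called lower against uninjected embryos. Protoporphyrinogen oxidase, the penultimate step, had 27.4, 34.1 and 37.7 CPM for ppox.L in MO2 embryos, against 42.4, 44.4 and 45.9 CPM in cMO and 45.5, 45.5 and 53.2 CPM in uninjected embryos. The ranges were separate (-0.43 ± 0.07, adjusted p = 0.0043). Ferrochelatase, the last step, changed by -0.40 (fech.L), uroporphyrinogen decarboxylase by -0.55 (urod.L) and the first enzyme of the pathway in red cells by -0.87 (alas2.S) and -0.63 (alas2.1.L). The transcription regulator lmo2.S (-0.55) and the red cell membrane anchor ank1.S (-0.38) completed the list. The call of ppox.L was kept in every fit that left out 1 library. Those of lmo2.S, fech.L and urod.L were lost without MO2 replicate 1 or cMO replicate 1, fech.L and urod.L also without MO2 replicate 3, fech.L without cMO replicate 3 and urod.L without cMO replicate 2, with adjusted p up to 0.0536, 0.0869 and 0.110. The list had 1 lower call without MO2 replicate 1 or cMO replicate 1, 2 when MO2 replicate 3 was left out, 3 for cMO replicate 3 and 4 for cMO replicate 2.

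Globins had 3 lower calls among 9 tested copies and a median of -0.46 (4 lower and 0 higher at an unadjusted p under 0.05, 3 lower and 0 higher by DESeq2). Copy hbd.L had 70.3, 97.9 and 185 CPM in MO2 embryos, against 182, 188 and 216 CPM in cMO and 159, 213 and 255 CPM in uninjected embryos. MO2 replicate 3 lay inside the cMO range and the other MO2 libraries were below it. The log2 fold change was -0.84 ± 0.16 (adjusted p = 0.0112), and the call was lost without MO2 replicate 1 or cMO replicate 1 (adjusted p up to 0.0945). The other calls were hbd.S (-0.67 ± 0.13, adjusted p = 0.0112) and hbz.L (-1.14 ± 0.27, adjusted p = 0.0327). The globins list had no lower call without cMO replicate 1, 1 without MO2 replicate 1 and 2 when MO2 replicate 2 or 3 or cMO replicate 2 was left out. The erythroid master regulator gata1, chosen for mention after its values were seen, was not called, at -0.27 ± 0.17 (gata1.L) and -0.66 ± 0.24 (gata1.S).

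In the list of white blood cell genes 2 of 42 tested copies fell and 1 rose (20 lower and 3 higher at an unadjusted p under 0.05, 5 lower and 2 higher by DESeq2). The list's median was -0.28 against cMO and 0.01 against uninjected embryos. Myeloperoxidase, a granule enzyme of neutrophils, had 49.7, 57.1 and 22.8 CPM for mpo.S in MO2 embryos, 101, 102 and 45.1 CPM in cMO and 52.0, 49.4 and 27.1 CPM in uninjected embryos. It was lower than cMO in 3 of 3 pairs (-0.94 ± 0.17, adjusted p = 0.00879) but changed by -0.02 against uninjected embryos, and cMO was the group that stood above both others. The call was lost without cMO replicate 1 (adjusted p = 0.0717). The myeloid transcription factor spi1.S was likewise called against cMO alone (-0.71 against cMO, -0.27 against uninjected). The adaptor fyb.L rose (1.56 ± 0.34, adjusted p = 0.0228), with 7.69, 6.34 and 1.89 CPM in MO2 embryos, against 1.94, 1.52 and 1.69 CPM in cMO embryos, so that MO2 replicate 3 lay within the cMO range. That call was lost without MO2 replicate 1 or 2 or any 1 cMO library, with adjusted p up to 0.158.

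Since erythroferrone binds BMPs in mammals, genes that BMP signals switch on were examined. Of 39 tested copies of BMP targets and feedback genes, 1 was called (2.56%), near the 2.82% over all genes tested. The list's median log2 fold change was 0.02. The called gene, smad6.2.L, belongs to the inhibitory SMADs, which dampen BMP signals and are themselves induced by them. It had 17.7, 20.4 and 24.6 CPM in MO2 embryos, against 29.7, 28.8 and 34.8 CPM in cMO and 33.9, 35.0 and 39.8 CPM in uninjected embryos. All MO2 libraries lay below all 6 others, and the log2 fold change against cMO was -0.58 ± 0.07 (adjusted p = 0.000375). Of the next 3 by p, nkx2-5.S was at -0.53 (adjusted p = 0.105), dlx3.L at 0.26 (adjusted p = 0.114) and atoh8.S at -0.48 (adjusted p = 0.247).

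The common readouts of BMP signalling, chosen for mention after their values were seen, stayed below the threshold in both directions. The inhibitor of differentiation gene id3.L had 165, 155 and 162 CPM in MO2 embryos, against 172, 145 and 156 CPM in cMO and 186, 148 and 152 CPM in uninjected embryos, a log2 fold change of 0.03 ± 0.06 against cMO. Values for id3.S (0.01 ± 0.06), id2.L (-0.05 ± 0.06) and id2.S (0.06 ± 0.07) were also within 1 SE of 0, and id4.L was at -0.21 ± 0.12. The feedback genes smad7.L (-0.04 ± 0.10), smad7.S (-0.06 ± 0.11), bambi.L (0.02 ± 0.10), bambi.S (-0.08 ± 0.08) and smad6.S (-0.21 ± 0.06, adjusted p = 0.0686) were not called either.

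The iron list had a median of -0.07 (6 lower and 1 higher at an unadjusted p under 0.05, 4 lower and 0 higher by DESeq2). Among its 33 tested copies 2 fell (6.06%, beside 1.78% of all genes tested) and none rose. Both have a part in the hepatic sensing of iron upstream of hepcidin in mammals. Transferrin receptor 2 had 8.58, 8.24 and 18.7 CPM for tfr2.L in MO2 embryos, against 20.4, 17.1 and 24.4 CPM in cMO and 15.3, 20.5 and 20.4 CPM in uninjected embryos. Replicate 3 of MO2 overlapped cMO and the others were lower (-0.86 ± 0.19, adjusted p = 0.0221). The BMP co-receptor hemojuvelin, hfe2.L, which is also a gene of skeletal muscle, changed by -0.32 ± 0.07 (adjusted p = 0.0303). Both calls were lost without MO2 replicate 1, cMO replicate 1 or cMO replicate 3, tfr2.L also without MO2 replicate 2 and hfe2.L also without MO2 replicate 3 or cMO replicate 2, with adjusted p up to 0.135 and 0.176. Steap3.L (-0.58, adjusted p = 0.0656) and slc39a8.S (-0.47, adjusted p = 0.0755) were next.

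Hepcidin itself, listed as hamp2 and chosen for mention after its values were seen, was not called. Copy hamp2.L had 8.28, 21.8 and 12.5 CPM in MO2 embryos, against 6.06, 10.0 and 8.11 CPM in cMO and 5.80, 4.96 and 7.83 CPM in uninjected embryos. MO2 was higher in 3 of 3 pairs, but its lowest library lay within the cMO range, and the log2 fold change was 0.73 ± 0.51 (adjusted p = 0.507). The iron exporter slc40a1.L (-0.03 ± 0.12), the transferrin receptor tfrc.L (0.17 ± 0.08) and bmp6.L (-0.07 ± 0.23) were not called.

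In the heart list 3 of 27 tested copies fell (11.1%, beside 1.78% of all genes tested). They were the atrial myosin light chain copies myl7.S (-0.78 ± 0.10, adjusted p = 0.000778) and myl7.L (-0.82 ± 0.13, adjusted p = 0.00287), and the natriuretic peptide nppa.L. This peptide gene had 0.923, 0.884 and 1.43 CPM in MO2 embryos, against 2.81, 2.15 and 2.55 CPM in cMO and 3.78, 3.21 and 2.41 CPM in uninjected embryos (-1.20 ± 0.21, adjusted p = 0.00727). Its ranges were separate, and the call was lost without MO2 replicate 1 (adjusted p = 0.0562). In the pronephros, the larval kidney, 3 of 31 copies fell (9.68%). The salt cotransporter slc12a1.L had 16.4, 21.1 and 17.7 CPM in MO2 embryos, against 34.6, 35.2 and 39.3 CPM in cMO and 34.1, 36.4 and 36.5 CPM in uninjected embryos (-0.98 ± 0.10, adjusted p = 0.000206). The endocytic receptor cubn.L also fell (-0.60 ± 0.12), a call lost without MO2 replicate 1, MO2 replicate 3 or any 1 cMO library (adjusted p up to 0.0955).

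Skeletal muscle and neurons, which make up much of the embryo, had no called copy among 46 and 53 tested, beside 2.82% of all genes tested. At that share, lists of this size hold few calls, so the absence of calls is near it. At an unadjusted p under 0.05, edgeR gave 7 lower and 2 higher muscle copies and 9 higher neuron copies. DESeq2 called 1 lower muscle copy and 4 higher neuron copies. Over all 30367 genes tested, 5220 were under that unadjusted threshold and DESeq2 called 1139, higher and lower together. The eye list had 1 call in 56 (1.79%), the lens crystallin crybb1.S (0.36 ± 0.09, adjusted p = 0.0496). That call did not hold against uninjected embryos or, against cMO, without 1 of several libraries (adjusted p up to 0.221). In the epidermis and cement gland list 3 of 33 fell. They were krt19.S (-0.49), perp.S (-0.23) and krt5.3.S, whose 86 counts in cMO embryos include 59 from replicate 1 and compare with 13 in MO2 and 14 in uninjected embryos. Of the 3, krt19.S was also called against uninjected embryos (-0.39), while perp.S (-0.16) and krt5.3.S (-0.45) were not. All 3 calls were lost without MO2 replicate 1, and each was lost without at least 1 cMO library (adjusted p up to 0.0876 for krt19.S, 0.210 for perp.S and 0.115 for krt5.3.S). Of the matrix list, fn1.S (-0.44) and col3a1.L (-0.53) fell among 41 (4.88%), and both calls were lost without MO2 replicate 1, cMO replicate 1 or cMO replicate 3. Against uninjected embryos col3a1.L was not called (-0.38). The embryos carried the markers of a whole body in every library, with 47 of 48 listed skeletal muscle copies, 53 of 53 neuron copies and 34 of 39 epidermis copies detected in all 15.

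**Figure D3:**
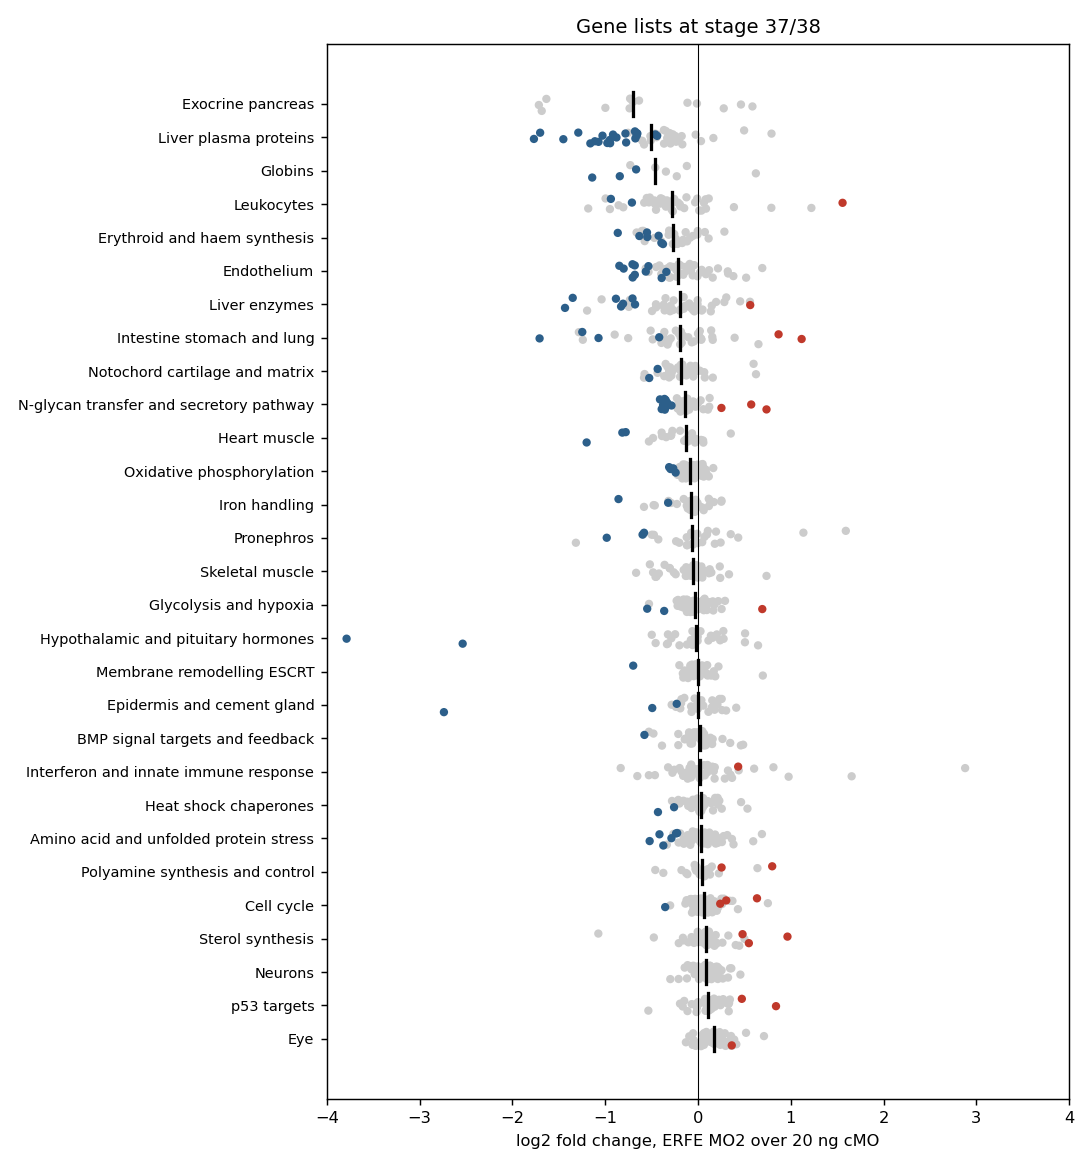
Log2 fold changes of 20 ng ERFE MO2 over 20 ng cMO for the tested copies of each gene list, 1 row per list. Red points are called higher, blue points are called lower, grey points are not called, and black bars are list medians; liver plasma proteins hold 23 blue points of 53, and the neuron list holds none of 53.

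Several genes of the secretory pathway were lower as well. In the list of N-glycan transfer and protein entry into the endoplasmic reticulum, 10 of 46 tested copies fell and 3 rose, with a median of -0.14. Of the 10, 8 were also called lower against uninjected embryos, while ostc.S (-0.12) and tram1.S (-0.21) were not. The oligosaccharyltransferase subunit ostc.1 had 106, 110 and 122 CPM in MO2 embryos, against 146, 142 and 157 CPM in cMO and 139, 148 and 164 CPM in uninjected embryos (-0.39 ± 0.06, adjusted p = 0.00149). The ranges were separate. The catalytic subunit stt3a.L (-0.33), ddost.S (-0.36), rpn1.S (-0.29) and ostc.S (-0.38) belong to the same complex. The translocon and its partners were represented by sec61a1.S (-0.35), ssr3.S (-0.35), ssr1.S (-0.41), tram1.S (-0.36) and tram1.L (-0.33). The signal peptidase subunit spcs2.L rose by 0.25, and the other 2 rises, both copies of rpn2, are described with the control below. The list held 5 lower calls without MO2 replicate 1 or cMO replicate 1, 9 or fewer without any other 1 of the 6 libraries, 0 in the same-lane pairs and 1 without the block.

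Some chaperones were lower with MO2. Of 58 tested copies of the unfolded protein and amino acid stress list, 6 fell (5 higher and 11 lower at an unadjusted p under 0.05, 1 higher and 7 lower by DESeq2), with a median of 0.04. All 6 belong to folding or quality control in the endoplasmic reticulum. The chaperone hsp90b1.L had 434, 365 and 430 CPM in MO2 embryos, against 639, 574 and 550 CPM in cMO and 532, 596 and 532 CPM in uninjected embryos (-0.52 ± 0.08, adjusted p = 0.00298). Other members were creld2.L (-0.42), creld2.S (-0.37), canx.S (-0.29), sel1l.L (-0.23) and sel1l.S (-0.24). Against uninjected embryos 4 of the 6 were called lower too, while creld2.S (-0.33, adjusted p = 0.0662) and sel1l.S (-0.06, adjusted p = 0.657) were not. Calls of hsp90b1.L and creld2.L were kept whichever of the 15 libraries was left out, while that of canx.S was lost without MO2 replicate 1, cMO replicate 2 or cMO replicate 3 and that of sel1l.L without any 1 of the 6. In the cytosol the abundant chaperone hspa8.S changed by -0.43 ± 0.06 (adjusted p = 0.00121) and its partner dnaja1.S by -0.26, a call lost without any 1 of the 6 libraries. They were the only calls among 33 heat shock copies (6.06%, beside 2.82% of all genes tested), whose median was 0.03. At an unadjusted p under 0.05 this list had 6 higher and 4 lower copies, and DESeq2 called 2 higher and 2 lower. Of 60 copies of the respiratory chain list 4 fell (6.67%), by 0.31 (atp5b.L), 0.30 (ndufs3.S), 0.24 (atp5f1.L) and 0.27 (atp5a1.S) on the log2 scale. The last 3 calls were lost without MO2 replicate 1, MO2 replicate 3, cMO replicate 1 or cMO replicate 3. Of the 4, atp5f1.L was not called against uninjected embryos (-0.16, adjusted p = 0.082).

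Fewer genes rose than fell. The hyaluronan synthase has1.S had 4.06, 7.67 and 5.38 CPM in MO2 embryos, against 0.516, 1.76 and 0.327 CPM in cMO and 0.764, 0.875 and 1.24 CPM in uninjected embryos. All MO2 libraries were above all others (2.82 ± 0.33, adjusted p = 0.000383). A larger ratio was seen for wdr38.S, chosen for mention after its values were seen, but at low counts: 102 in MO2 embryos, against 5 in cMO and 9 in uninjected embryos, a ratio of 17.9 to cMO with a 95% counting interval of 7.45 to 56.5. Ornithine decarboxylase, the rate-limiting enzyme of polyamine synthesis, had 273, 280 and 231 CPM for odc1.S in MO2 embryos, against 146, 157 and 148 CPM in cMO and 122, 140 and 139 CPM in uninjected embryos (0.80 ± 0.07, adjusted p = 0.000106). Its second copy odc1.L rose by 0.25, and these were the called members among 25 polyamine genes. The chromatin protein gene phf12.S had 41.0, 37.3 and 36.2 CPM in MO2 embryos, against 19.7, 20.8 and 22.4 CPM in cMO embryos, with separate ranges (0.87 ± 0.08, adjusted p = 0.000106).

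Some further rises were called in every fit that left out 1 library. The zinc finger gene thap1.S rose by 0.97 ± 0.12, the anion channel gene best2.L by 1.37 ± 0.23 and the glycolytic enzyme pgam1.L by 0.69 ± 0.08. In the glycolysis and hypoxia list of 50 copies pgam1.L was the only rise, and both copies of the regulator pfkfb4 fell (pfkfb4.S -0.55, pfkfb4.L -0.37). Against uninjected embryos pfkfb4.L was not called (-0.25, adjusted p = 0.0665). In the interferon and innate immune list 1 of 45 copies was called, the NF-kappa-B subunit rel.S (0.43 ± 0.09, adjusted p = 0.0144). This share of 2.22% is near the 2.82% over all genes tested, and the call was lost without MO2 replicate 1, cMO replicate 2 or cMO replicate 3 (adjusted p up to 0.0971). The DNA replication licensing factor cdc6.L had 48.2, 52.0 and 45.6 CPM in MO2 embryos, against 30.6, 35.2 and 28.3 CPM in cMO and 26.4, 34.4 and 33.8 CPM in uninjected embryos (0.63 ± 0.08, adjusted p = 0.000778). Of 68 copies in the cell cycle list 5.88% were called, beside 2.82% of all genes tested. In this list 3 rose, the others being rrm1.S (0.30) and pcna.L (0.24), and cdc25b.S was lower than cMO (-0.35). Its mean level was 16.1 CPM in MO2, 20.6 CPM in cMO and 16.5 CPM in uninjected embryos, so that cMO stood above both others. Calls of rrm1.S, pcna.L and cdc25b.S were lost without MO2 replicate 1 and several other single libraries (adjusted p up to 0.214, 0.227 and 0.127). Low genes with a rise that depended on single libraries were rbm46.L (1.34), ltc4s.1.S (1.06) and fam180a.L (0.99), with adjusted p up to 0.0769, 0.0772 and 0.229 when 1 library was left out.

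The genes with the largest falls against both references included some outside the lists. The sulfate transporter slc13a1.L had 0.585, 1.04 and 0.612 CPM in MO2 embryos, against 2.32, 1.99 and 2.23 CPM in cMO embryos, with separate ranges (-1.56 ± 0.25, adjusted p = 0.0044). The first enzyme of steroid synthesis, cyp11a1.S (-1.55), the elastic fibre protein fbln5.S (-1.58) and the amino acid enzyme aadat.L (-1.56) were called too. Each of these 3 calls was lost without MO2 replicate 1 or cMO replicate 3, with adjusted p up to 0.0621, 0.0774 and 0.0719.

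At some of the genes called against cMO, it was cMO that stood apart from uninjected embryos. Of the 856 genes, 15 were called in the opposite direction for cMO against uninjected embryos, 11 of the higher and 4 of the lower genes; these comparisons share the cMO libraries, so the levels are given side by side. Growth hormone releasing hormone, ghrh.L, had 5, 12 and 8 counts in MO2, 142, 68 and 97 counts in cMO and 2, 5 and 4 counts in uninjected embryos. MO2 was at 0.0717 of the cMO level (95% counting interval 0.0457 to 0.108), while cMO was 24.7 times the uninjected level (13.6 to 49.9). The copy ghrh.S had 43 counts in MO2, 225 in cMO and 5 in uninjected embryos. For ghrh.S, MO2 was also called above uninjected embryos (log2 fold change 2.65, adjusted p = 0.0231), at 6.69 times their level (2.65 to 21.6). It was the only gene called lower than cMO and higher than uninjected. On chromosome 9_10L of the RefSeq table, ghrh.L and rpn2.L are neighbours, while rpn2.S on 9_10S lies between LOC121399214 and emilin3.S. Whether position bears on these levels was not tested. The oligosaccharyltransferase subunit rpn2.S had 167, 182 and 175 CPM in MO2, 89.4, 125 and 102 CPM in cMO and 204, 212 and 190 CPM in uninjected embryos. It was higher than cMO (0.74 ± 0.09) and changed by -0.21 against uninjected embryos, and rpn2.L was also higher than cMO (0.57) but lower than uninjected (-0.36).

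The other genes of this kind were cdca8.S, of the chromosomal passenger complex, the claudin cldn6.2.S, the histone chaperone nap1l4.S and the unnamed Xelaev18041800m.g. Against cMO they changed by 0.83, 0.85, 0.45 and -0.48, and against uninjected embryos by 0.19, 0.11, -0.06 and -0.09, none of the last 4 called. The ESCRT gene chmp7.L (-0.70 against cMO) and 3 genes of sterol synthesis and uptake, ldlr.L (0.55), hmgcs1.L (0.48) and msmo1.L (0.96), were not called against uninjected embryos either, though cMO itself was not called for them.

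The second ERFE morpholino, MO1, was injected at 10 ng and compared with 10 ng cMO in the same stage. The amounts differ, so the responses are set side by side, and the 2 comparisons use separate control libraries. Both controls are cMO, so genes at which cMO itself stood apart can enter the counts of shared calls and signs. Among these, ghrh.L was at -3.79 with MO2 and -3.68 with MO1, and rpn2.S at 0.74 and 0.70, all called. The 10 ng and 20 ng cMO libraries of numbers 1 and 3 were also close (chi-square per gene 3.78 and 4.59). How far this raised the shared counts was not tested. MO1 changed 1796 genes (5.91%), 1032 higher (3.40%) and 764 lower (2.52%). A total of 215 genes were called in the same direction for both, which is 25.1% of the MO2 calls and 12.0% of the MO1 calls, and 10 were called in opposite directions. Of the 540 genes lower with MO2, 444 (82.2%) had the same sign with MO1, and of the 316 higher genes 223 (70.6%) did, beside 59.3% of all genes tested. Without the doubted MO1 library the shares were 79.1% and 68.4% (427 of 540 and 216 of 316), beside 56.8%. In that fit, 223 genes were shared, 19.5% of 1145 MO2 calls and 12.8% of 1749 MO1 calls.

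Some liver and vessel genes were lower with both. With MO1, 17 of the 53 plasma protein copies were lower and 4 higher, and 12 of the 57 endothelial copies were lower. Without the doubted MO1 library these counts were 20, 4 and 8. Other members differed: the difference between the responses was called for 4 plasma protein and 1 endothelial copies, or 5 and 2 without that library. Among them were plg.S (-1.45 with MO2, -0.40 with MO1), c3.L (-0.66 and 0.43) and cdh5.S (-0.85 and -0.21), none called with MO1. The differences of plg.S and cdh5.S stayed called without the doubted library (-0.90 and -0.67). The fold changes of fgb.L were -1.77 with MO2 and -1.07 with MO1, those of stab2.L were -0.71 and -0.63, and those of fam132b.L were -0.79 and -0.57. For smad6.2.L they were -0.58 with MO2 and -0.40 with MO1. Without the doubted library the MO1 values were -0.89 for fgb.L, -0.65 for stab2.L, -0.48 for fam132b.L and -0.39 for smad6.2.L, and the fam132b.L call was lost (adjusted p = 0.115). Targets of p53, the mediator of DNA damage responses, were set apart by MO1: 2 of 37 copies were called higher with MO2, btg2.S (0.47) and eda2r.L (0.84), against 22 with MO1. Both MO2 calls were lost without MO2 replicate 1 or 3 or cMO replicate 2, among others (adjusted p up to 0.0714 and 0.188). The difference between the responses was called for 11 of these 37. Without the doubted MO1 library, 4 were called higher with MO2, 19 were called higher and 1 lower with MO1, and 15 differed. The cell cycle inhibitor cdkn1a.L changed by 0.09 ± 0.15 with MO2 and by 1.57 with MO1, and the p53 regulator mdm2.L by 0.08 ± 0.14 with MO2 and by 1.81 with MO1, both chosen for mention after their values were seen. Their MO1 values were 1.82 and 2.05 without the doubted library.

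The difference between the MO2 and the MO1 response was called for 319 genes (1.05%), 82 with a higher (0.270%) and 237 with a lower MO2 response (0.780%). Without the doubted MO1 library it was called for 593, 157 higher and 436 lower. The rise of has1.S had no counterpart with MO1 (0.02 ± 0.38), a difference of 2.81 on the log2 scale. Neither phf12.S (-0.12 with MO1) nor thap1.S (-0.17) was called with MO1, while odc1.S rose there by 0.30. Without the doubted library the MO1 values were -0.25 for has1.S, -0.12 for phf12.S, -0.24 for thap1.S and 0.29 for odc1.S, of which odc1.S alone was called.

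**Figure D4:**
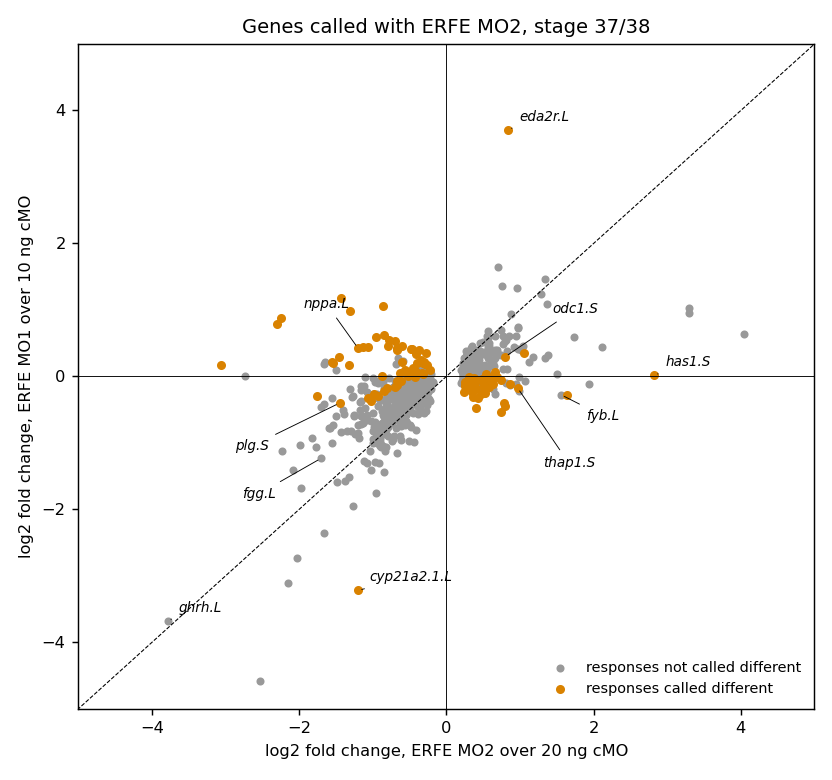
Each point is 1 of the 856 genes called between 20 ng ERFE MO2 and 20 ng cMO at stage 37/38, with that log2 fold change across and the one of 10 ng ERFE MO1 over 10 ng cMO up; the dashed line marks equal values. Orange points are genes whose responses were called different, such as has1.S at 2.82 with MO2 and 0.02 with MO1, and grey points are the rest, many of them below zero on both axes.

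The changes were set against normal development between stages 35/36 and 41 in uninjected embryos, in which 12501 of 29905 genes were called (41.8%). Of the 540 genes lower with MO2, 34.6% normally rose and 13.5% normally fell over this time. Of the 316 higher genes, 7.28% normally rose and 41.8% normally fell. Over all genes tested the shares were 19.9% and 20.7%. Among the higher genes, has1.S changed by -6.04 on the log2 scale over this time. This fit had no replicate block, although all 9 same-number pairs of uninjected libraries of different stages deviated together (correlation 0.327 to 0.527). With the block, added after seeing the data, 14898 genes were called (49.8%), and 42.0% of the lower genes rose and 16.7% fell, 10.8% of the higher genes rose and 47.5% fell, beside 23.9% and 24.6% of all genes. A stage score over 4739 genes, scaled from 0 at the uninjected mean, was -0.068, -0.0436 and 0.0142 in MO2 embryos, against -0.0434, -0.0336 and 0.0626 in cMO embryos. MO2 was lower in 3 of 3 pairs, and the mean difference of -0.0277 was within the spread of the groups (exact permutation test, two-sided p = 0.5, with 0.1 the smallest possible). The exact sign-flip test over the 3 pairs gave p = 0.25, the smallest it can give.

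Many of the calls were seen again later. In the comparison of 20 ng MO2 with 20 ng cMO at stage 41, in which 7.63% of 31503 genes were called, 3.31% higher and 4.32% lower, 158 of the 316 higher and 257 of the 540 lower genes were called in the same direction, and none in the opposite one. Plasma protein copies were lower for 23 of the 53 at that stage too, with plg.S at -1.54, serpina1.S at -1.50 and fgb.L at -1.43. The targeted fam132b.L was at -0.87 (adjusted p = 0.000637). The difference between the stages was called for 42 of 31503 genes (0.133%), 21 with a higher (0.0667%) and 21 with a lower response at stage 41 (0.0667%). Sterol synthesis accounted for 14 of them: 35 of the 42 copies of that list were higher with MO2 at stage 41, against 3 at stage 37/38. The endothelium list held 5 higher and 5 lower calls at stage 41, against 0 and 10 at stage 37/38. For the BMP list these were 6 higher and 1 lower, against 0 and 1. The difference between the stages was called for no copy of these last 2 lists.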

How the data were processed

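The deposited values are whole-number read counts per gene, 1 file per library. The submitters' processing notes name bcl2fastq 2.17.1.14, FastQC 0.11.5, the aligner STAR 2.5.2a, the counter featureCounts 1.5.0-p1 and DESeq2 1.8.2. Genome build and annotation: not given in the sources used here, nor is the treatment of reads that match several genes. RNA was isolated with Trizol and prepared with the TruSeq RNA v2 kit, per the labels' protocols. That kit does not mark strand, and so overlapping genes on opposite strands can share reads.

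Each file holds 45038 gene identifiers, of which 23502 carry a symbol and 18906 match a symbol or synonym of the RefSeq table supplied. The 15 libraries of stage 37/38 held 25881961 to 41922031 counts, and 3 counts, the floor used for a level of 0, equal 0.0777 to 0.115 CPM. Intervals and floors cover counting error only.

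Tests were computed in R 4.3.3. The filter filterByExpr (edgeR 4.0.16, minimum count 10) left 30367 genes and 99.9494% of counts. TMM-scaled counts were fitted by the quasi-likelihood model with 1 term per group and the replicate number as a block over the 15 libraries (biological coefficient of variation 0.0888, 8 residual degrees of freedom). P-values are two-sided and adjusted by the Benjamini-Hochberg method over all genes tested. Standard errors were taken from the log2 fold change and its F statistic (size over root F). The labels do not say what a replicate number shares. The numbers were taken to pair the libraries because all 30 same-number pairs deviated together (median correlation 0.517, against at most -0.129 between different numbers) and 15 of 15 libraries correlated best with their own number. The stage 41 comparison used 30 libraries of stages 37/38 and 41, and normal development used 9 uninjected libraries without a block, with the block as an added alternative. The stage score is the mean position of 4739 genes between the uninjected means.

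The genes named are the targeted gene, up to 10 per direction with the largest change called the same way against both references (with a symbol and at least 1 CPM), up to 6 with the control called in the opposite direction, up to 4 per list by p, and up to 4 per direction for the differences between MO2 and MO1 and between stages. Other called members are listed in full, and further genes are marked as chosen after their values were seen. The comparison, the 29 gene lists and these rules were chosen with earlier results of these data known. Scripts were tested on simulated data. Alternatives were DESeq2 1.42.0, relative log scaling, no filter, no block, all 45 libraries or 44 of them, a lane term, and leaving out each library or replicate number. A called pronephros gene is not reported here.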

Additional observations from a re-analysis of the deposited data

Results flagged for a closer look

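Results given here are differences between responses, each called by an interaction term of the edgeR quasi-likelihood model with Benjamini-Hochberg adjustment; they were picked by the size of the difference. Between MO2 and MO1 at stage 37/38, each against its own amount of cMO, the log2 response to MO2 was higher by 2.81 for has1.S, 2.02 for cyp21a2.1.L (steroid 21-hydroxylase), 1.5 for msc.S and 1.45 for slc25a4.L. It was lower for rpl3l.S (-4.91), cnfn.S (-4.64), lif.S (-4.27) and lhcgr.L (-4.06). These values rest in part on the doubted MO1 library. Without it they were 3.05 for has1.S, 1.51 for msc.S, 1.89 for slc25a4.L, -5.09 for rpl3l.S, -3.18 for cnfn.S, -4.22 for lif.S and -4.51 for lhcgr.L, while cyp21a2.1.L was at 1.87 and no longer called (adjusted p = 0.0567).

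Between stage 41 and stage 37/38, the response to MO2 against 20 ng cMO was higher at stage 41 by 2.16 for g6pc.S, the glucose-releasing phosphatase of liver, and by 1.68, 1.62 and 1.34 for the sterol synthesis genes sqle.L, cyp51a1.S and lss.S. It was lower at stage 41 for the stomach proton pump atp4a.S (-2.87), the smooth muscle genes myh11.S (-2.01) and acta2.L (-1.54), and cdc20b.L (-1.89).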

How the results depend on the processing

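None of the named genes changed sign under the alternatives run for them, at most 139 values a setting. Other values, such as list medians and uncalled genes, were not rerun under most settings. Counts of called genes moved with the replicate block, the lane and single libraries. For MO2 against cMO (856 in the report) there were 54 without the block and 514 with the block over all 45 libraries. There were 31 without it over 45, and 67 with a lane term over 45. The 45 libraries include ERFE MO2 stage 35/36 replicate 1, and with the block over the other 44 there were 844. The cause of these shifts was not tested further. For MO2 against uninjected (1503) the first 4 settings gave 48, 933, 20 and 32. For the same direction against both (540) they gave 22, 300, 13 and 18. They gave 19, 141, 13 and 19 for the difference from MO1 (319), and 4, 13, 4 and 7 for cMO against uninjected (22). In these 4 comparisons the fit over 44 libraries gave 1393, 511, 249 and 22. The stage difference (42) had 0 calls without the block and 140 by DESeq2. DESeq2 gave 509 for the difference from MO1 and 88 for cMO against uninjected, for which no filter gave 38 and a fit of 9 libraries, added after seeing the data, 68. Leaving out libraries or replicate numbers gave 62 to 1145 for MO2 against cMO, 153 to 1948 against uninjected, 47 to 725 for both, 19 to 593 for the difference from MO1, 4 to 58 for cMO against uninjected, 15 to 100 for the stage difference and -0.0365 to -0.0173 for the stage score difference. Counts for MO2 against cMO stayed within 1.5 times under relative log scaling (846), no filter (884) and DESeq2 (1139, of which 807 were among the 856). Of 87 named called genes, 83 were called by DESeq2 and 21 without the block. Depth limits genes near the floor of 3 counts.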

Other observations

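Some groups were put together only after the values were seen, and are given as counts without a test, to be read beside 1.78% of all genes called lower and 1.04% called higher. Vessel genes outside the endothelium list were among them: of 31 tested copies, 18 were called lower and none higher with MO2 against cMO, 15 of them also against uninjected embryos, with a median log2 fold change of -0.48. They included the gap junction gene gja4.L (-1.33), the thrombin receptor thbd.L (-1.02), the clotting factor vwf.L (-0.88), plvap.L (-0.81) of fenestrated vessels and the nitric oxide synthase nos3.L (-0.69). With MO1, 13 of the 31 were called lower and 1 higher, or 11 and 1 without the doubted MO1 library. Basement membrane genes had 4 lower calls among 25, both copies of the collagen gene col4a2 (-0.62 and -0.61) and of nid2 (-0.42 and -0.43). Only 2 of the 4 were also called against uninjected embryos, where nid2.L (-0.19) and nid2.S (-0.28) were not called.

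Retinoid genes had 8 lower calls among 35 tested copies (median -0.18), 6 of them also against uninjected embryos. They were led by the gut retinol carrier rbp2.L (-1.41), the retinol binding protein receptor stra6.S (-0.73) and rdh11.S (-0.72). Coats and cargo receptors of traffic between endoplasmic reticulum and Golgi had 11 lower calls among 43, such as surf4.1.L (-0.43) and lman1.L (-0.37). Of the 11, 7 were also called lower against uninjected embryos. Peroxiredoxins had 3 among 11, with prdx4.L at -0.42, and disulfide isomerases of the endoplasmic reticulum 2 among 9. In the other direction, 8 of 17 tested copies of the spliceosomal snrp genes were called higher and none lower, among them snrpd3.L (0.46) and snrpd1.L (0.45), and 7 of the 8 were also called against uninjected embryos. Prefoldin subunits, which hand new proteins to a cytosolic chaperonin, had 3 higher calls among 9 (pfdn1.L 0.41, pfdn5.S 0.33, pfdn5.L 0.31).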
